A study of Mus musculus with 16 samples.

Results

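The genes described here encode the machinery of endocytosis and vesicle traffic, compared between kidney and liver of mice. They were chosen by symbol from the probes that carry 1 gene symbol: Rab, Arf, syntaxin (Stx) and Snap symbols followed by a digit, all Snx, Vps, Vamp and Ehd symbols, and the subunits of the adaptor complexes Ap1 to Ap4, without Ehd3. This gave 140 genes with 177 probes out of 9669 genes on the arrays, and 109 of the 140 had a single probe. By its wording the rule also took in Rab26os, an antisense transcript, Vps72, a subunit of chromatin complexes, Vps9d1, and 6 genes named after a Rab that are not GTPases (Rab3ip, Rab3il1, Rab5if, Rab11fip3, Rab11fip4 and Rab11fip5).

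The animals were untreated male wildtype C3HeB/FeJ mice of 105 ± 5 days, and no allele or treatment differs between groups. The tested RNA came from the left kidney (7 arrays) or the dorsal liver lobe (9 arrays) of 3 mice. Each kidney sample shared its arrays with a pool of 5 livers, and each liver sample with a pool of 5 kidneys, so that every array measured a ratio between the organs and no absolute level. Repeat hybridisations of a mouse and organ, of which there were 3 except for a single kidney array of mouse 3, were averaged to 6 values, 1 per mouse and organ. Values are log2 ratios of kidney over liver throughout, and a positive value means higher in kidney. The deposited values were turned to this direction from marker genes, against the order of the titles: as deposited, albumin (Alb) averaged 8.44 on kidney arrays and -7.57 on liver arrays, and the kidney androgen-regulated gene Kap averaged -5.77 and 6.08. If the order of the titles held instead, every kidney and liver in the results would change places. Albumin would then be higher in kidney and Kap higher in liver. The arrays held 15480 to 19432 values each. The 6 arrays of mouse 2 had medians between -1.49 and -1.19 as kidney over liver, although the labels describe scaling to a median ratio of 1, and the medians of the other 10 lay within 0.00267 of 0. The counts over all trafficking genes are therefore given with and without mouse 2. Single genes are given as deposited, and some also without mouse 2 or with its arrays shifted towards the others.

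Membrane cargo enters a cell in coated vesicles, in which adaptor complexes link cargo to clathrin. Rab GTPases mark each compartment and recruit the tethers and motors that move and dock vesicles, and SNARE proteins (syntaxins, Vamp and Snap proteins) fuse the membranes. Sorting nexins and the retromer and retriever complexes return receptors from endosomes, while the HOPS and ESCRT machinery sends cargo to lysosomes. In kidney, proximal tubule cells use this route to take up filtered protein through megalin and cubilin. In liver, hepatocytes use it to clear plasma glycoproteins and to secrete plasma proteins and bile components.

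Of the 133 trafficking genes with values from at least 2 mice in each organ, 18 passed the threshold, an adjusted p of 0.05 by limma across all 9047 genes tested. Higher in kidney were 7 genes, led by Rab3ip, Stx3, Vps41 and Snx8, and higher in liver were 11, led by Rab3d, Rab26, Rab21 and Snx32. These are 5.26% and 8.27% of the trafficking genes, beside 5.47% and 8.71% of all genes tested, so the share of organ-biased genes was close to that of the arrays as a whole. Over the trafficking genes the median was -0.37, with 37 estimates above 0 and 96 below, and over all genes the median was -0.48, so the array as a whole was shifted the same way. The 18 genes had adjusted p-values from 3.06e-07 to 0.0392 and a median fold of 2.48 in either direction. In 17 of them all available averages had the same sign, the exception being Ap4m1. In whole organs, fewer cells of a type and less RNA per cell cannot be told apart. The 7 genes without enough values (Ap2m1, Rab20, Rab2b, Snx33, Stx16, Vps37b and Vps8, 1 probe each) were not tested.

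**Figure D1:**
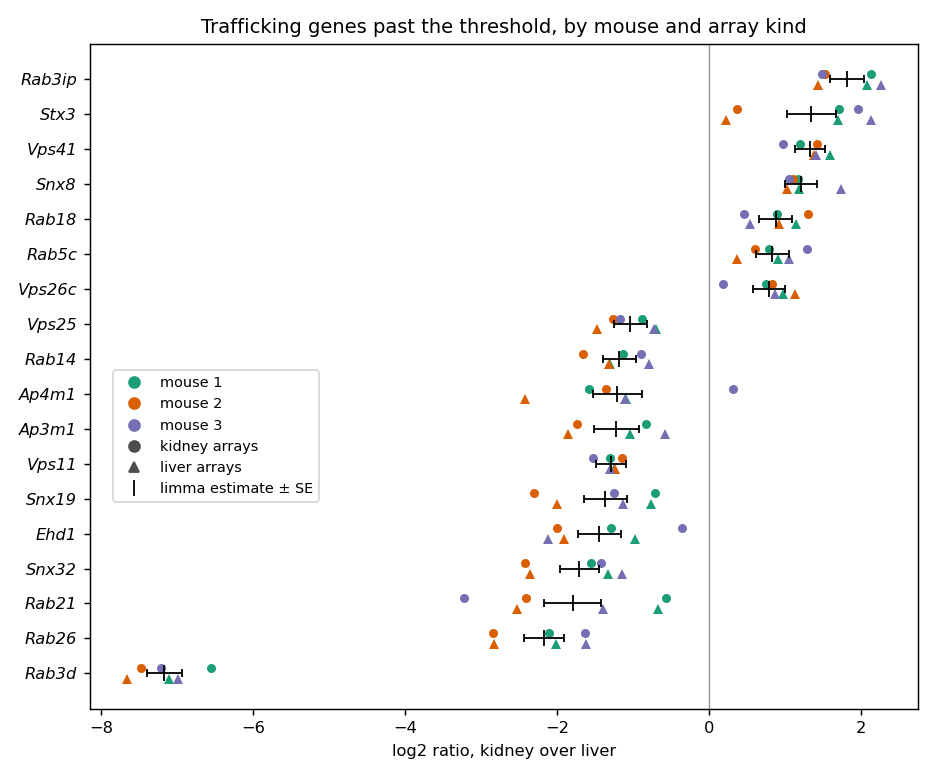
Log2 ratios of kidney over liver for the 18 trafficking genes past the threshold. Points are the averages of 1 mouse (colour) on kidney arrays (circles) or liver arrays (triangles), and black bars are limma estimates ± SE. The points of Rab3d lie between -7.65 and -6.55, away from all other genes, and Ap4m1 has 1 point on the other side of 0.

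The test takes the 6 averages as independent, although the kidney and liver averages come from the same 3 animals. A replicate block for the mouse leaves 1 value per animal; with it, 3 trafficking genes were higher in kidney (2.77% of all genes tested) and 7 higher in liver (4.65%). Of the 18 genes, 9 remained: Rab3ip, Stx3 and Vps41 in kidney, and Rab3d, Rab26, Rab21, Snx32, Ehd1 and Snx19 in liver. That fit gave every gene with 6 averages the same SE of 0.455, since limma pooled the variance over all genes, so its p-values rank these genes by size alone. Without a block, both counts were larger once mouse 2 was shifted or left out. With its arrays aligned to those of mice 1 and 3 along a curve against signal, 35 trafficking genes were higher in kidney (20.0% of all genes tested) and 23 higher in liver (18.1%). Without mouse 2 they were 29 (20.1%) and 14 (15.7%) of the 117 genes that could be tested. After centring each array they were 37 (19.3%) and 21 (12.4%). The block combined with the alignment gave 26 (14.3%) and 13 (10.6%), and combined with centring 22 (11.5%) and 6 (5.17%), 2 fits chosen after seeing the data. All 18 genes kept their direction and call with mouse 2 aligned, and 16 without mouse 2, where Ap4m1 had an adjusted p of 0.0517 and Ap3m1 no value. The alignment draws mouse 2 towards mice 1 and 3 and so tends to narrow the spread that the test uses. A call kept there is a weak check. Rab3d, Rab26, Snx32 and Rab3ip kept their call under each of the 12 other settings listed in the methods that gave them a value. Without mouse 1, 5 of the 18 genes kept their call: these 4 and Rab21. Without mouse 3, 5 did, these 4 and Ap4m1.

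**Figure D2:**
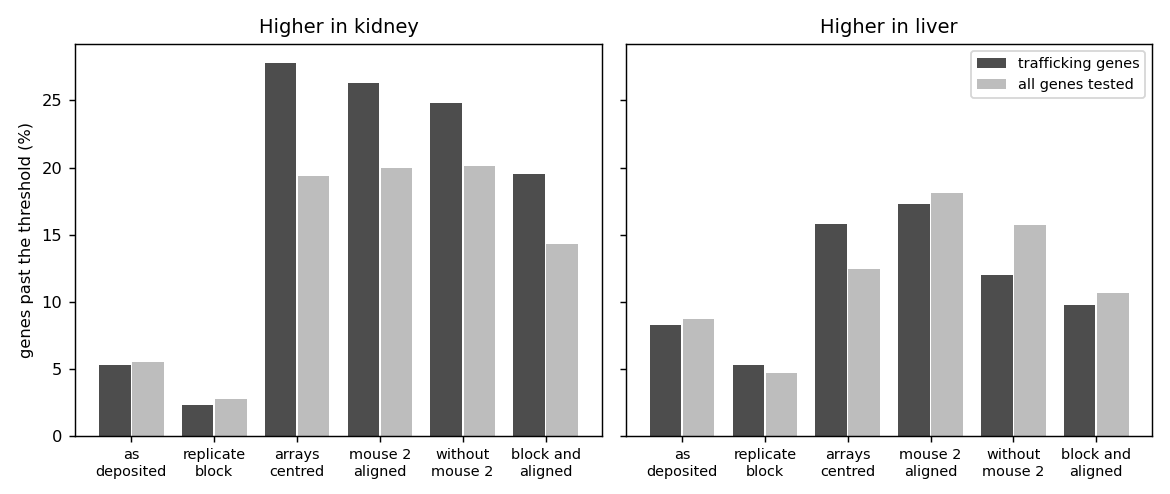
Share of genes past the threshold (%) in kidney and in liver, for the trafficking genes (dark bars) and all genes tested (light bars) under 6 ways of fitting the same arrays. As deposited the shares are 5.26% against 5.47% in kidney and 8.27% against 8.71% in liver. After the arrays of mouse 2 are aligned they are 26.3% against 20.0% in kidney and 17.3% against 18.1% in liver.

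The Rab GTPases that define secretory vesicles held the largest difference. Rab3d, the Rab3 form of exocrine secretory granules, had ratios of -6.55, -7.48 and -7.22 on the kidney arrays of mice 1, 2 and 3 and -7.11, -7.65 and -6.99 on the liver arrays. It was 144-fold higher in liver (-7.17, SE 0.23, adjusted p 3.06e-07), in the range of the hepatocyte markers. Rab3d had 1 probe, so no second probe could be set beside this value. The relatives of Rab3d did not share this: Rab3a had -0.62 (adjusted p 0.0862) and Rab3b -0.66 (adjusted p 0.106). Rab3a exceeded Rab3d by 6.55 ± 0.32 (SD over 6 averages). Rab26, another GTPase of secretory vesicles, had -2.11, -2.85 and -1.63 on kidney arrays and -2.01, -2.84 and -1.62 on liver arrays, 4.52-fold higher in liver (adjusted p 0.000629). In each mouse both kinds of arrays gave Rab26 nearly the same ratio, with mouse 2 lowest. Without mouse 2 the estimate of Rab26 was -1.84. The antisense transcript Rab26os had -0.81 (adjusted p 0.112), and since the strands of the probes are not given in the sources used here, Rab26 and Rab26os may share signal. Of the 5 tested Rabs of regulated secretion, these 2 passed.

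On early endosomes, where Rab5 proteins drive the fusion of incoming vesicles, 1 of 7 tested Rabs was higher in kidney and 1 higher in liver. Rab5c had 0.79, 0.60 and 1.29 on kidney arrays and 0.91, 0.36 and 1.04 on liver arrays, 1.78-fold higher in kidney (adjusted p 0.0379), and its adjusted p was 0.279 with the replicate block. Its relative Rab5b had -0.59 and did not pass, and Rab5c exceeded it by 1.42 ± 0.47 in 6 of 6 averages. The 2 probes of Rab5b disagreed, at -1.41 (values recurring on 60% of arrays) and 0.23 (20%). The size of the gap to Rab5c therefore depends on the probe of Rab5b. Rab21, which acts in integrin endocytosis, was 3.48-fold higher in liver (-1.80, SE 0.38, adjusted p 0.0147). This rested on 1 of its 2 probes, which had -3.04 and lay between -3.76 and -1.99, while the other had -0.04. Rab4a, the Rab of rapid recycling, had -0.32 and did not pass.

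Among the Rabs of recycling endosomes and the apical route, Rab14, which acts between endosomes and the Golgi, had -1.14, -1.66 and -0.90 on kidney arrays and -1.30, -1.32 and -0.79 on liver arrays. It was 2.27-fold higher in liver (adjusted p 0.00709, and 0.0993 with the replicate block), and the other 8 tested did not pass. Rab11a, the general Rab of recycling endosomes, had -0.85 (adjusted p 0.115), and its epithelial relative Rab25 had -0.61. After the alignment of mouse 2, 3 of these 9 Rabs were higher in kidney (20.0% of all genes tested) and 3 in liver (18.1%). Among the 3 in kidney were Rab10, with 0.78 (adjusted p 0.000852), and Rab17, an epithelial Rab, with 0.90 (adjusted p 0.00358). In liver, Rab8a, which serves apical and ciliary delivery, had -0.65 (adjusted p 0.00493). None of these 3 genes passed as deposited, where they had 0.53, 0.44 and -0.97.

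The Rabs of the endoplasmic reticulum and Golgi were the only Rab site with a median above 0 as deposited, at 0.16 over 6 genes. Over all genes the median was -0.48, so 0 was no neutral point. With mouse 2 aligned this site had 0.60, early endosomes 0.16 and late endosomes and lysosomes 0.14. In that fit the recycling and apical site had -0.21 and regulated secretion -0.33. Rab18, a Rab of the endoplasmic reticulum and lipid droplets, was 1.83-fold higher in kidney (adjusted p 0.0316, and 0.267 with the replicate block), with averages from 0.46 to 1.30. In kidney, 4 of the 6 passed with mouse 2 aligned (20.0% of all genes), 6 after each array was centred (19.3%) and 3 without mouse 2 (20.1%). With the replicate block 0 passed (2.77%), with block and alignment 4 (14.3%), and with block and centring 2 (11.5%). None passed in liver in these fits. Rab2a, which acts in transport between endoplasmic reticulum and Golgi, had 0.66 as deposited (adjusted p 0.063) and 0.91 aligned (adjusted p 0.000906). Of the 4 tested Rabs of late endosomes and lysosomes none passed as deposited. Rab7, which governs fusion with lysosomes, had 0.33, and its 3 probes had 0.83, 0.62 and -0.46. Rab7 had 0.67 with mouse 2 aligned (adjusted p 0.00322).

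Among 6 tested effectors and other proteins named after a Rab, Rab3ip was the largest difference in the direction of kidney. Rab3ip, also known as Rabin8, activates Rab8 on the way to the apical membrane and the primary cilium. It had 2.12, 1.52 and 1.49 on kidney arrays and 2.08, 1.43 and 2.26 on liver arrays. It was 3.52-fold higher in kidney (1.82, SE 0.22, adjusted p 0.000751), and its 2 probes had 2.16 and 1.47. The lowest of the 6 averages was 1.43, with mouse 2 at or near the low end on both kinds of arrays. The Rab11 effectors Rab11fip4 and Rab11fip5 had 0.46 and 0.31 and did not pass as deposited. Both passed in kidney with mouse 2 aligned, at 0.71 (adjusted p 0.00357) and 0.66 (adjusted p 0.0013). In that fit 4 of the 6 genes of this group passed in kidney, beside 20.0% of all genes tested.

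Promoters are shown for the 2 called genes with the largest difference in each direction among those with a matched promoter, Rab3ip and Stx3 in kidney and Rab3d and Rab21 in liver. RefSeq promoters (GRCm38.p6, 300 bases across the start of a transcript, most of them upstream) were matched for 110 of the 140 genes, with 139 promoters. Capitals mark matches, on either strand, to the GC box GGGCGG, to the E-box CACGTG, to TATAAA or to CCAAT, and overlapping matches are joined. The promoter of Rab3d lies at chr9:21918134-21918433, that of Rab21 at chr10:115315542-115315841, that of Rab3ip at chr10:116950404-116950703 and that of Stx3, described with the SNAREs, at chr19:11819354-11819653, all on the minus strand.
Rab3d: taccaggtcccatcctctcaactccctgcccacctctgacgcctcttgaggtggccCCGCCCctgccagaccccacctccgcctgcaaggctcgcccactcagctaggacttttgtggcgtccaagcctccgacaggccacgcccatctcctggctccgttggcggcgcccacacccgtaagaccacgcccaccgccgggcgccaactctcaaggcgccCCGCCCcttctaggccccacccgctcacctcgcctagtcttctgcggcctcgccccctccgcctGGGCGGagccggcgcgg
Rab21: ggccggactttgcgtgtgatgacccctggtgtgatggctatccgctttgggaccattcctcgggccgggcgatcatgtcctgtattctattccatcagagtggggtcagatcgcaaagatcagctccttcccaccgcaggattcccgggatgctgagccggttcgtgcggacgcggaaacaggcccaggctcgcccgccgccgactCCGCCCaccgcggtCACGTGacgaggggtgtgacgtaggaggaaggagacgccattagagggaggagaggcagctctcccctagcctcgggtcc
Rab3ip: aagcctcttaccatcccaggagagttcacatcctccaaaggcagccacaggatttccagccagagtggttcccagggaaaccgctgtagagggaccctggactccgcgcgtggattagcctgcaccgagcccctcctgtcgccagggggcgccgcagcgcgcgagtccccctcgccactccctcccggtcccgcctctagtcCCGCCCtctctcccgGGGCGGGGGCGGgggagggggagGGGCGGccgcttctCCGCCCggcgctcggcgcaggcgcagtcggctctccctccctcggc
Stx3: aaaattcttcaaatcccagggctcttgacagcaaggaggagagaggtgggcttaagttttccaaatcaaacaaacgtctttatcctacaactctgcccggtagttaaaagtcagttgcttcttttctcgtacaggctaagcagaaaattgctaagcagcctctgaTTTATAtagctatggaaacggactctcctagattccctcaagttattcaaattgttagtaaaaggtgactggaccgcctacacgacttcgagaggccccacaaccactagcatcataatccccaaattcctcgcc
The Rab3ip promoter holds 5 GC boxes and that of Rab3d 3, that of Rab21 holds 1 GC box and 1 E-box, and that of Stx3 holds no GC box and 1 TATAAA. Their GC contents are 71.7%, 71.0%, 63.7% and 44.0% for Rab3ip, Rab3d, Rab21 and Stx3. The GC box occurs in 66.9% of the promoters of trafficking genes and in 35.7% of all 32851 promoters. It occurs in 4 of 6 promoters of genes called higher in kidney and in 7 of 7 of those called higher in liver, so GC-rich promoters were found on both sides. The E-box occurs in 10.8% against 7.15%, TATAAA in 7.19% against 13.6%, and CCAAT in 36.0% against 37.4%. The median GC content is 61.0% in promoters of trafficking genes and 52.7% in all promoters. These matches describe letters in a window, and no binding was measured.

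The sorting nexins bind endosomal lipids and sort receptors into tubules, and 3 of 21 tested passed. Snx8, which sorts cargo from early endosomes, had 1.17, 1.10 and 1.05 on kidney arrays and 1.18, 1.03 and 1.73 on liver arrays, 2.31-fold higher in kidney (adjusted p 0.00515, and 0.0898 with the replicate block). Its 6 averages lay close together except for the liver arrays of mouse 3. Snx32, a relative of the retromer-linked Snx5 and Snx6, was 3.27-fold higher in liver (adjusted p 0.0024), with averages from -2.42 to -1.15. Snx19 was 2.58-fold higher in liver (adjusted p 0.0129), from -2.31 to -0.72, and in both genes mouse 2 was lowest. Without mouse 2 the estimates were -1.37 for Snx32 and -0.97 for Snx19. Snx5 and Snx6 had -0.23 and -0.73 and did not pass. Snx1, a classical retromer partner, had -0.24. Snx17, which recycles receptors of the family that includes megalin, had 0.33 (adjusted p 0.394), and 0.50 with mouse 2 aligned (adjusted p 0.060).

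The Vps proteins are subunits of several endosomal and Golgi complexes. Of 26 tested, Vps41 and Vps26c were higher in kidney and Vps11 and Vps25 higher in liver. Vps11, a core subunit of the HOPS and CORVET tethers, had -1.30, -1.14 and -1.53 on kidney arrays and -1.25, -1.23 and -1.31 on liver arrays, 2.45-fold higher in liver (adjusted p 0.00263, and 0.0572 with the replicate block). Vps41, the HOPS subunit that contacts Rab7-positive membranes, had 1.19, 1.42 and 0.98 on kidney arrays and 1.58, 1.37 and 1.40 on liver arrays, 2.50-fold higher in kidney (adjusted p 0.00249). Both kept a narrow range over the mice, mouse 2 included, on opposite sides of 0. Other subunits of HOPS, given here for comparison, did not pass: Vps16 had -0.49, Vps33a 0.13 and Vps39 -0.30.

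Retriever and retromer return receptors to the surface or the Golgi. Vps26c, a retriever subunit, was 1.73-fold higher in kidney (adjusted p 0.0384, and 0.296 with the replicate block), with averages from 0.19 to 1.12. It exceeded the retromer subunit Vps26b by 1.42 ± 1.04 in 6 of 6 averages. Vps35l, its partner in retriever, had -0.71 and did not pass. The retromer subunits Vps26a and Vps29, the second shared by both complexes, had -0.50 and 0.36. Vps29 passed in kidney with mouse 2 aligned, at 0.68 (adjusted p 0.00377). Vps25 of ESCRT-II, which sorts ubiquitinated cargo, was 2.06-fold higher in liver (adjusted p 0.0133, and 0.177 with the replicate block), while its partner Vps36 had -0.39 and did not pass. The estimate of Vps25 was -1.04 as deposited and -0.66 with mouse 2 aligned. Vps51 of the GARP tether had 0.75 as deposited (adjusted p 0.0529) and 1.18 aligned (adjusted p 0.000525), whereas its partners Vps52 and Vps53 had -0.33 and -0.19 aligned and did not pass. Vps45, which regulates SNARE pairing, had -0.33.

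**Figure D3:**
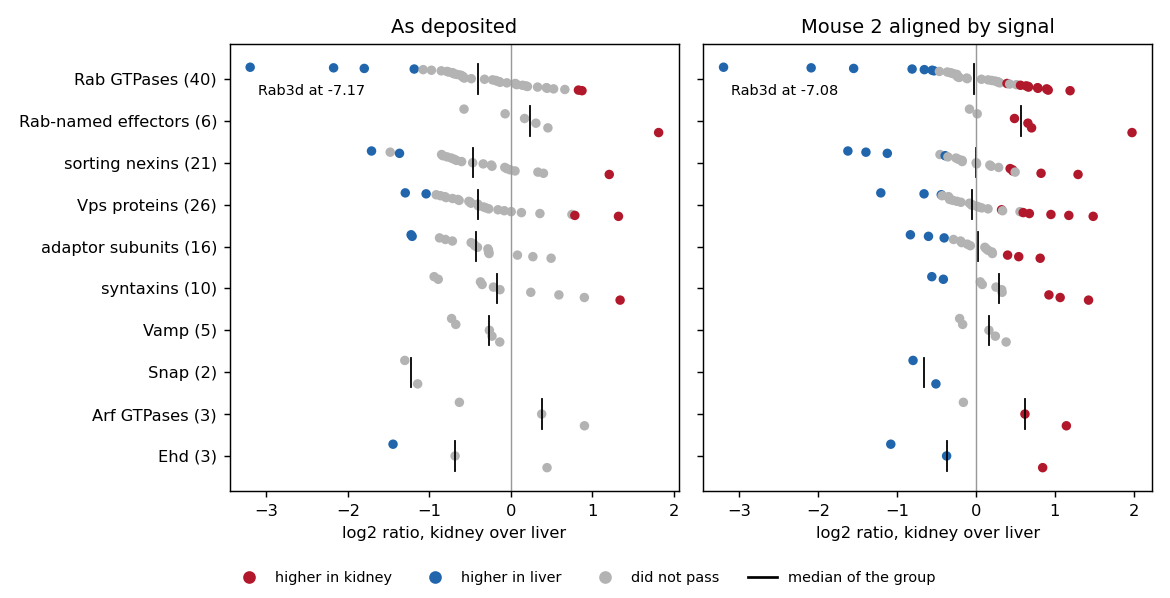
Log2 ratios of kidney over liver of the tested trafficking genes by role, as deposited and with mouse 2 aligned by signal. Each point is a gene, coloured by its limma call, black bars are group medians, and Rab3d is drawn at the edge with its value. As deposited 7 genes lie right of 0 and past the threshold, and aligned 35 do.

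Of the 16 adaptor subunits tested, 2 passed, both medium subunits and both higher in liver. Ap3m1, of the AP-3 complex that serves lysosomes and related organelles, was 2.34-fold higher in liver (adjusted p 0.0333, and 0.132 with the replicate block), with 5 averages from -1.86 to -0.58. Its estimate was -1.22 as deposited and -0.60 with mouse 2 aligned. Only 1 of its 2 probes had enough values to be tested alone. That probe had values recurring on 87.5% of arrays, and with it the gene did not pass (-0.83, limma adjusted p 0.153). The call of Ap3m1 therefore rests on the average with a sparser probe. The tissue-restricted form Ap3m2 had -0.45 and exceeded Ap3m1 by 0.79 ± 0.41 in 5 of 5 averages. Ap4m1, of the AP-4 complex at the trans-Golgi, had -1.21 (adjusted p 0.0392), with 0.31 on the kidney array of mouse 3 and -1.11 on its liver arrays. It is named after its values were seen, as the 18th gene past the threshold. AP-2, the adaptor of clathrin-coated pits at the plasma membrane, did not pass in any of 3 tested subunits: Ap2a2 had 0.27, Ap2b1 -0.44 and Ap2s1 -0.27. The probe of Ap2a2 with the fewest recurring values had 0.84 and its other probe -0.30. The epithelial AP-1 subunit Ap1m2, which sorts to the basolateral surface, had -0.27. With mouse 2 aligned 3 adaptor subunits were higher in kidney, among them Ap1g1 of AP-1 with 0.82 (adjusted p 0.00111), and 3 higher in liver. These are 18.75% each, beside 20.0% and 18.1% of all genes tested.

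Among the membrane-fusing SNAREs, 1 of 10 tested syntaxins passed and none of 5 Vamp and 2 Snap genes. Stx3, the syntaxin of the apical plasma membrane in epithelia, had 1.71, 0.37 and 1.95 on kidney arrays and 1.69, 0.22 and 2.12 on liver arrays. It was 2.54-fold higher in kidney (1.34, SE 0.33, adjusted p 0.0269), and its promoter is the AT-rich one printed above. Mice 1 and 3 had similar ratios and mouse 2 a much lower one on both kinds of arrays, and without mouse 2 the estimate was 1.87. Stx4a, the basolateral syntaxin, had -0.37 and did not pass. The vesicle SNAREs Vamp3 and Vamp8 had -0.73 and -0.26, and no tested Vamp gene passed with mouse 2 aligned. Without mouse 2, Vamp8 passed in kidney, at 0.44 (adjusted p 0.0178), so its sign turned. Snap29 and Snap47 had -1.14 and -1.30 as deposited (adjusted p 0.0801 and 0.065) and passed in liver with mouse 2 aligned, at -0.51 and -0.80. With block and alignment 1 of these 2 passed in liver (10.6% of all genes tested). With the block alone 0 did (4.65%), and with block and centring 0 (5.17%). The endosomal syntaxins Stx8 and Stx12 had 0.90 and 0.59 as deposited and passed in kidney aligned, at 1.07 (adjusted p 0.000756) and 0.93 (adjusted p 0.000136).

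Ehd1, an ATPase that releases cargo from recycling endosomes, had -1.29, -2.01 and -0.36 on kidney arrays and -0.98, -1.91 and -2.12 on liver arrays, 2.72-fold higher in liver (adjusted p 0.00965). Of the 6 log2 ratios, that of mouse 3 on its single kidney array was nearest to 0, and that on its liver arrays was the most negative. Ehd4 had -0.68 and did not pass. Of 3 Arf GTPases, which recruit coats to Golgi membranes, none passed as deposited. Arf3 had 1.35, 0.04 and 1.27 on kidney arrays and 1.24, 0.26 and 1.29 on liver arrays (0.91, adjusted p 0.0594), near 0 only in mouse 2, and had 1.15 with mouse 2 aligned.

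Of the 18 genes past the threshold, 11 were measured on a bright probe. A probe's signal was judged by how often its value recurred exactly on the same array, which happens where intensities are small whole numbers. The share is read from the same ratios, and a very large ratio can also fail to recur. On this scale 24 of the 177 probes were bright (values recurring on at most 10% of the arrays of mice 1 and 3) and 59 dim (over 50%). Of the 24 genes whose brightest probe was bright, 6 were higher in kidney and 5 in liver, against 0 and 1 of 44 dim genes. Shares over all bright or all dim genes were not computed, so these counts cannot be read as a trait of the trafficking genes. Mouse 2 lay below mice 1 and 3 by a median of -0.65 in the bright genes, -1.11 in the 57 between and -1.40 in the dim genes. The SD between mice had a median of 0.387 for bright probes and 0.882 for dim ones, against 0.202 and 0.237 between hybridisations of the same RNA. The spread between mice as deposited was thus larger than that between hybridisations in both classes, and most so in the dim one. It includes the offset of mouse 2, and the spread without that offset was not computed.

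**Figure D4:**
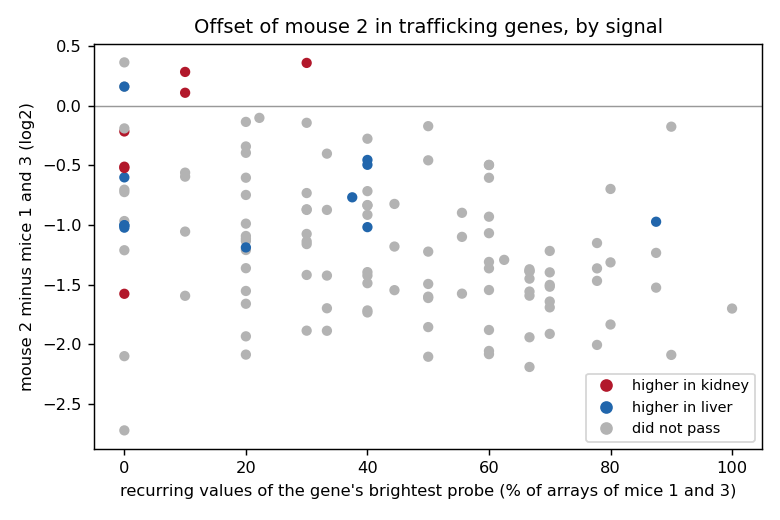
Offset of mouse 2 from mice 1 and 3 (log2, kidney over liver) against the share of arrays on which the values of a gene's brightest probe recur (%). Points are tested trafficking genes with such a share, coloured by their limma call as deposited. The median offset is -0.65 in bright genes and -1.40 in dim ones.

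Probes of the same gene often disagreed. Several tested probes were available for 27 genes. In 11 of these the probes differed in sign, and in 0 did they pass in opposite directions. The widest gap was that of Rab21, followed by Snx27. Snx27, a retromer-linked sorting nexin, also had the largest difference between kinds of arrays, 1.03. With its probes averaged on each array, it had 0.302, -1.96 and 0.295 on the kidney arrays of mouse 1, so that 1 hybridisation set its average. The fit averaged hybridisations before probes, and there 1 probe of Snx27 entered with -7.15 for the kidney of mouse 1. Kidney and liver arrays used different pools. In a limma test of their difference 0 of 133 genes passed, beside 0.0% of all genes tested. In that test 0 had an unadjusted p under 0.05, beside 17 of all 9047 genes. The fit had no block for the mouse, so deviations that a mouse shares over both kinds of arrays widened its error. It could therefore hardly find a difference between the pools. Compared within mice, a test chosen after seeing the data, 0 passed (lowest adjusted p 0.628), beside 11 of all 9047 genes. An unadjusted p under 0.05 was found for 6 trafficking genes (4.51%), beside 7.86% of all genes. The mean over kidney arrays correlated with that over liver arrays at r = 0.968 across the 116 genes with 6 averages, and at 0.940 without Rab3d. This is a description across genes, which share the arrays and the same 3 mice.

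**Figure D5:**
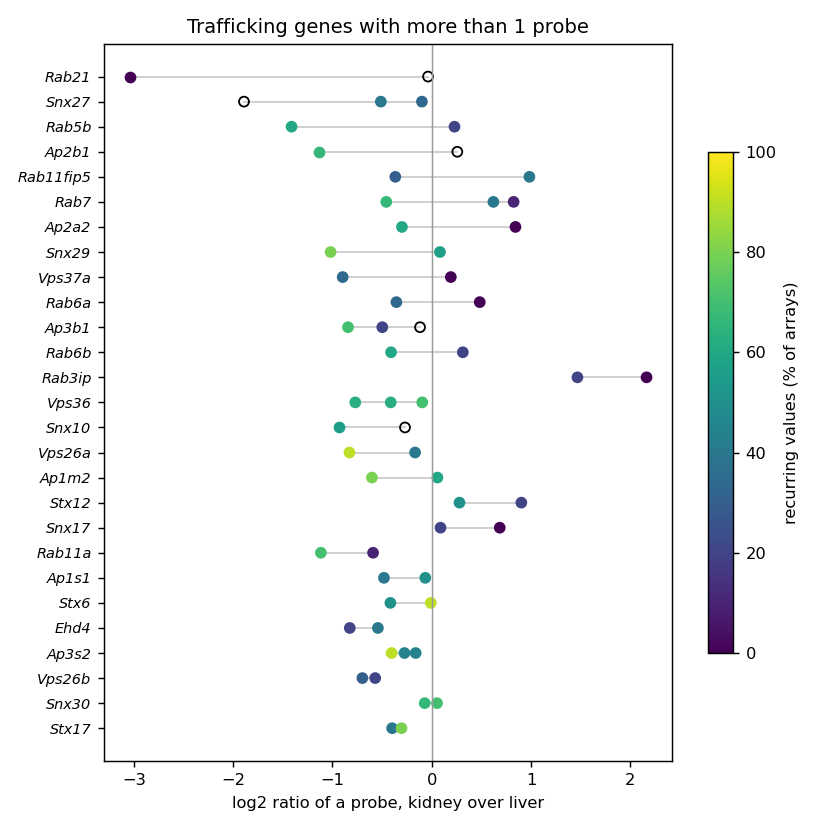
Log2 ratio of kidney over liver of each probe, for the 27 trafficking genes with more than 1 tested probe, joined by a line and ordered by the gap. Colour gives the share of arrays on which the probe's values recur, and open circles have no share. The probes of Rab21 lie at -3.04 and -0.04.

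Beyond the named families, lists of trafficking genes from textbook complexes gave 109 tested genes, 10 higher in kidney and 3 higher in liver, 9.17% and 2.75% beside a background of 5.47% and 8.71%. Their median was -0.38, against -0.48 over all genes. The clathrin list held 4 and 2 of 23. The clathrin light chains, which regulate coat assembly, moved in opposite directions: Clta was 2.22-fold higher in kidney (1.15, adjusted p 0.00555) and Cltb 7.10-fold higher in liver (-2.83, adjusted p 2.5e-05). Necap1, an AP-2 binding protein of clathrin-coated vesicles, was 2.66-fold higher in kidney (adjusted p 0.00169). Cltb and Necap1 also passed with the replicate block and Clta did not (adjusted p 0.116). Of 15 coat genes of the secretory route, 2 were higher in kidney, Sec23b (1.26) and Sec23a (0.99), both COPII subunits, and 1 in liver, the COPI subunit Cope (-0.95), which did not pass with mouse 2 aligned. Of 15 ESCRT genes, Stam2 was higher in kidney (1.09). Of 22 tethers, 3 were higher in kidney: Cog5 of the Golgi tether COG (1.26), Hook2 (1.22) and Exoc4 of the exocyst (0.87). None of 14 other SNARE genes or 20 Rab and Arf regulators passed. With the replicate block 1 list gene was higher in each organ, and with mouse 2 aligned 26 and 10 were.

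Markers set the scale of these differences. All 8 hepatocyte genes were higher in liver (median -7.75) and all 7 tested proximal tubule genes higher in kidney (median 5.15), among them the endocytic receptors megalin (Lrp2, 3.86) and cubilin (Cubn, 5.16). Alb of the first list and Kap of the second set the direction of all values, so the side of these genes was fixed in advance. Of the other cell types these organs hold, 3 of 4 collecting duct and 2 of 2 podocyte genes were higher in kidney. Of 4 macrophage genes 3 were higher in liver, Tyrobp (-2.92), Clec4f of Kupffer cells (-1.91) and C1qa (-1.13), and C1qb had 0.31. None of 2 endothelial, 2 lymphocyte, 1 erythroid, 1 adipocyte and 2 adrenal genes passed. The part of any of these cell types in the trafficking results was not tested. The 7 trafficking genes higher in kidney lay between 0.79 and 1.82, below each of the proximal tubule markers, whereas Rab3d alone among the 11 higher in liver reached the level of hepatocyte markers.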

How the data were processed

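Per the labels' protocols, 20 µg of total RNA was labelled with 1 of 2 dyes, a GenePix 4000A scanner read the slides, and in GenePix Pro 3.0 the authors subtracted the background and scaled the ratios to a median of 1. The deposited values are log2 ratios. The base is not stated and was read from the values: on ratios between integers no larger than 10, log2 matched 140 of 144 spacings from the most frequent value (tolerance 1e-04), log10 matched 16 and the natural log 0. Dyes per sample are not given in the sources used here, and the number of arrays limits the precision.

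Of 20419 probes, 11723 had 1 symbol, 806 several and 7890 none in the platform annotation, and 11590 of the first matched RefSeq. The hybridisations of each mouse and organ were averaged for each probe, and then the probes of a symbol were averaged. With limma 3.58.1 (R 4.3.3) the organ difference and the array kind were fitted to genes with at least 2 mice per organ. All p-values are two-sided, with Benjamini-Hochberg adjustment over all genes tested at 0.05. The fit was checked on simulated data, and figures were drawn with matplotlib 3.10.9. Aligning mouse 2 subtracted from each of its arrays a lowess curve of its difference from mice 1 and 3 against the share of recurring values. The other 11 settings were centring each array, the replicate block, leaving out each mouse, either kind of arrays alone, values in all 6 averages, bright probes only, the probe of a gene with the fewest recurring values, and a trended robust variance.

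Mouse numbers name the same animals in the labels, which is where the pairing comes from. Over 14688 probes, the deviations of a mouse on its kidney and liver arrays, as single sample over pool, correlated at -0.591, -0.795 and -0.585 for mice 1, 2 and 3. The replicate block used that scale. As kidney over liver the deviations of a mouse go together, so the p-values without the block tend to be too small.

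Named were called genes with 1 sign in all averages (up to 12 in each direction), the largest difference in each role group, fixed textbook members, and up to 3 called genes per list. Other genes were added as partners in a complex or for their value with mouse 2 aligned, after their values were seen. The members and lists were chosen with earlier results of these data known. Pools give no spread, and protein sequences were not used here.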

Additional observations from a re-analysis of the deposited data

How the results depend on the processing

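As deposited the counts in kidney and in liver were 7 and 11 trafficking genes, and 10 and 3 list genes. After centring each array these were 37 and 21, and 27 and 5; with mouse 2 aligned by signal 35 and 23, and 26 and 10. With a replicate block for the mouse they were 3 and 7, and 1 and 1; with the block after centring 22 and 6 trafficking genes and 1 list gene in liver; and with the block and mouse 2 aligned 26 trafficking and 21 list genes in kidney. Leaving out 1 mouse gave 1 to 29 and 4 to 14 trafficking genes, and 0 to 20 and 1 to 6 list genes. The upper ends came without mouse 2; without mouse 1 there were 1 and 4 trafficking genes, and without mouse 3 there were 1 and 5. Kidney arrays alone gave 1 and 4 trafficking genes, and 0 and 1 list genes. Liver arrays alone gave 4 and 9 trafficking genes, and 1 and 1 list genes. Bright probes alone gave 10 and 6 of 24 trafficking genes, and 9 and 1 of 16 list genes. The probe with the fewest recurring values, and a trended robust variance, each gave 12 trafficking genes in kidney. Shares over all genes were not computed for these 2 settings, bright probes, either kind of arrays alone, or without mouse 1 or 3. Counts there cannot be set against the arrays as a whole. The cause of the changes in count was not tested beyond the fewer mice, arrays or probes that some settings hold. The count of trafficking genes that differ between kinds of arrays was 0 under every alternative run for it.

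Over the 133 trafficking genes, 35 estimates changed sign after centring and 33 with mouse 2 aligned, and 30 of 117 without mouse 2, none of them of a gene that passed as deposited. Among the named genes followed through all settings, 10 that did not pass changed sign. After centring, with or without the block, Ap1m2 had 0.18, Ap2s1 0.19, Rab4a 0.13, Snx1 0.21, Stx4a 0.0805, Vamp8 0.19 and Vps45 0.12, and Ap2b1 had 0.12 without the block and 0.16 with it. With mouse 2 aligned, with or without the block, Ap1m2 had 0.20, Rab4a 0.16, Snx1 0.0044, Stx4a 0.0565, Vamp8 0.17 and Vps45 0.15, and Ap2b1 had 0.11 without the block and 0.15 with it. Leaving out 1 mouse, Ap1m2 ranged from -0.53 to 0.18, Rab25 from -0.98 to 0.0386, Rab4a from -0.63 to 0.22, Snx1 from -0.82 to 0.21, Stx4a from -0.60 to 0.0357, Vamp8 from -0.62 to 0.44 and Vps45 from -0.58 to 0.15, each highest without mouse 2. With the probe of fewest recurring values, Ap1m2 had 0.0579 and Rab5b 0.23. None of the 18 trafficking genes that passed as deposited changed sign in the 12 settings. Vamp8 passed in kidney without mouse 2 (adjusted p 0.0178). Of the 44 dim genes 0 in kidney and 1 in liver passed as deposited, and 7 and 6 with mouse 2 aligned, and the part of signal in this was not tested. The shares over all dim genes were not computed.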

Other observations

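Snx18, an endocytic sorting nexin on a bright probe, was looked at after its values were seen, because mouse 2 lay furthest from the others in it. It had -1.61, -3.51 and 0.48 on the kidney arrays of mice 1, 2 and 3 and -1.47, -3.07 and 0.30 on the liver arrays. Both kinds of arrays placed the mice in the same order with mouse 3 on the kidney side, and the estimate of -1.48 did not pass (limma adjusted p 0.108). It passed with mouse 2 aligned, at -1.39 (adjusted p 0.0411), and with the replicate block (adjusted p 0.0184), whose SE is pooled over all genes. It did not pass without mouse 2, at -0.57 (adjusted p 0.302), or with the block after centring (adjusted p 0.147).

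With mouse 2 aligned, after centring and without mouse 2 alike, 27 of the 117 trafficking genes with values in all 3 fits were higher in kidney and 12 higher in liver (23.1% and 10.3%), beside 18.1% and 10.5% of 7575 genes. These fits have no block for the mouse, and 21 and 6 of the genes remained with the block after centring, and 25 and 10 with the block and mouse 2 aligned. As deposited, 20 and 3 of them did not pass. The 20 comprised the Rabs Rab10, Rab15, Rab17, Rab2a, Rab34, Rab35, Rab43 and Rab7, the Rab11 effectors Rab11fip4 and Rab11fip5, the Arf GTPases Arf2 and Arf3, the adaptor subunits Ap1g1 and Ap2a2, the syntaxins Stx8 and Stx12, the Vps proteins Vps29 and Vps51, and Ehd2 and Snx30. The 3 were Rab8a, Stx11 and Stx18.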
